A study of Homo sapiens with 8 samples.

Results

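The desmosome genes examined here were the 10 genes DSG1, DSG2, DSG3, DSC2, DSC3, DSP, JUP, PKP1, PKP2 and PKP3, out of 34164 genes listed in at least 1 of the 2 deposited tables. They were selected by name, with no cut on measured values, when earlier results of these data were known. RNA was sequenced from Kyse510 cells, an established human esophageal squamous cell carcinoma (ESCC) line, as 8 libraries, each of them the only library of its condition. For the inhibitor part, cells were given vehicle (DMSO), 7 µM SP2509 (an inhibitor of the histone demethylase LSD1), 7 µM UNC0642 (an inhibitor of the histone methyltransferase G9a), or both compounds, each for 2 days. The dose of each compound in the combination is not stated separately. For the knockdown part, Kyse510 cells with a doxycycline-inducible (Dox-inducible) shRNA against LSD1 or G9a went through 14 days of puromycin selection before sequencing, and were sequenced without Dox or after 2 days of Dox. Each induced library was compared with its own uninduced line, and both lines carry an integrated shRNA construct and passed through the same selection. No line with a nonsilencing shRNA was analysed here, so an effect of Dox itself cannot be told apart from that of the hairpin.

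Desmosomes are the junctions that tie the keratin filaments of neighboring epithelial cells together, and stratified squamous epithelia such as that of the esophagus carry many of them. Their adhesive parts are the desmosomal cadherins, namely the desmogleins (DSG) and desmocollins (DSC), which bridge the gap between cells. Inside the cell, plakoglobin (JUP) and the plakophilins (PKP) bind the cadherin tails, and desmoplakin (DSP) connects them to keratins. DSG2, DSC2 and PKP2 are the broadly expressed isoforms, whereas DSG1, DSG3, DSC3 and PKP1 are characteristic of stratified epithelia.

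Values are FPKM as deposited, that is, sequenced fragments scaled by the length of the gene and by the total of the library. The FPKM values could be turned back into whole reads, which gave library totals of 15662035 to 17889466 reads. Intervals are 95% exact intervals for the counting of these reads, and they cover counting error only. With 1 library per condition there is no replicate check on any difference, and no test between conditions was possible. A gene is said to have risen or fallen when the ratio of (FPKM + 1) was at least 1.3 in either direction and the gene reached 1 FPKM in at least 1 of the 2 libraries. This scale understates the change of genes with low FPKM.

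The libraries were first checked on their targets and their cell type. KDM1A, which encodes LSD1, had 26.0 FPKM in the shLSD1 line without Dox and 6.29 FPKM with Dox, and EHMT2, which encodes G9a, had 7.85 and 4.76 FPKM in the shG9a line. KDM1A had 26.4 FPKM in the uninduced shG9a line and 35.8 FPKM in the induced one, while EHMT2 had 7.998 and 7.969 FPKM in the shLSD1 line. Over vehicle, SP2509, UNC0642 and the combination, KDM1A had 40.7, 36.2, 40.3 and 32.0 FPKM, and EHMT2 had 11.1, 10.2, 10.3 and 5.38 FPKM. All 7 squamous epithelial markers checked reached 1 FPKM in 6 of the 8 libraries. With SP2509 and with the combination 6 of the 7 did, and SOX2 fell from 18.3 FPKM with vehicle to 0.3129 and 0.6365 FPKM. With SP2509, 5 of the 7 rose and 1 fell (21.0% and 39.9% of all tested genes). KRT5 (427 to 734 FPKM) and TP63 (79.1 to 127 FPKM) were among those that rose. With the combination, 3 of the 7 rose and 3 fell (31.4% and 31.7% of all tested genes). KRT14 (1.93 to 10.1 FPKM), EPCAM (139 to 206 FPKM) and SFN (179 to 690 FPKM) rose there. SOX2, TP63 (79.1 to 18.3 FPKM) and KRT5 (427 to 163 FPKM) fell. The summed level of 4 leukocyte markers never exceeded 0.117 FPKM. Of 6 fibroblast and 3 endothelial markers, COL1A1 (2.92 to 5.36 FPKM), COL3A1 (up to 1.501 FPKM), CDH5 (3.28 to 14.0 FPKM) and VWF (up to 1.42 FPKM) reached 1 FPKM, while the others, COL1A2, DCN and PECAM1 among them, stayed below it. The summed fibroblast markers were highest with SP2509 (6.96 FPKM, 3.40 with vehicle), and the summed endothelial markers in the induced shLSD1 library (14.5 FPKM, 5.54 uninduced) and the combination (12.4 FPKM, 3.56 with vehicle). Their part in the results was not tested.

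Of the 10 desmosome genes, 8 had 2.20 FPKM or more in every library. In the vehicle library JUP was the highest at 148 FPKM, above 99.5% of all listed genes. DSP followed at 81.8 FPKM and DSG2 at 80.3 FPKM, and these neighbors in the order were not separated by counting error (80.4 to 83.2 against 78.5 to 82.1 FPKM). DSC3 had 49.1, DSG3 28.6 and PKP3 25.1 FPKM. The lowest of the 8 were PKP2 and DSC2 at 8.64 and 8.51 FPKM, again with overlapping intervals (8.10 to 9.21 and 8.11 to 8.93 FPKM).

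The remaining members were nearly silent. PKP1, a plakophilin of differentiated layers, ranged from 0.193 to 1.13 FPKM and passed 1 FPKM in the induced shG9a library alone. DSG1, the desmoglein of the upper layers and a target of autoantibodies in pemphigus, was listed with 1 read in each shG9a library and 0 reads in each shLSD1 library. It is not listed in the inhibitor table, which contains no gene at 0 in all 4 of its libraries. DSG1 could therefore not be compared in any setting.

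**Figure D1:**
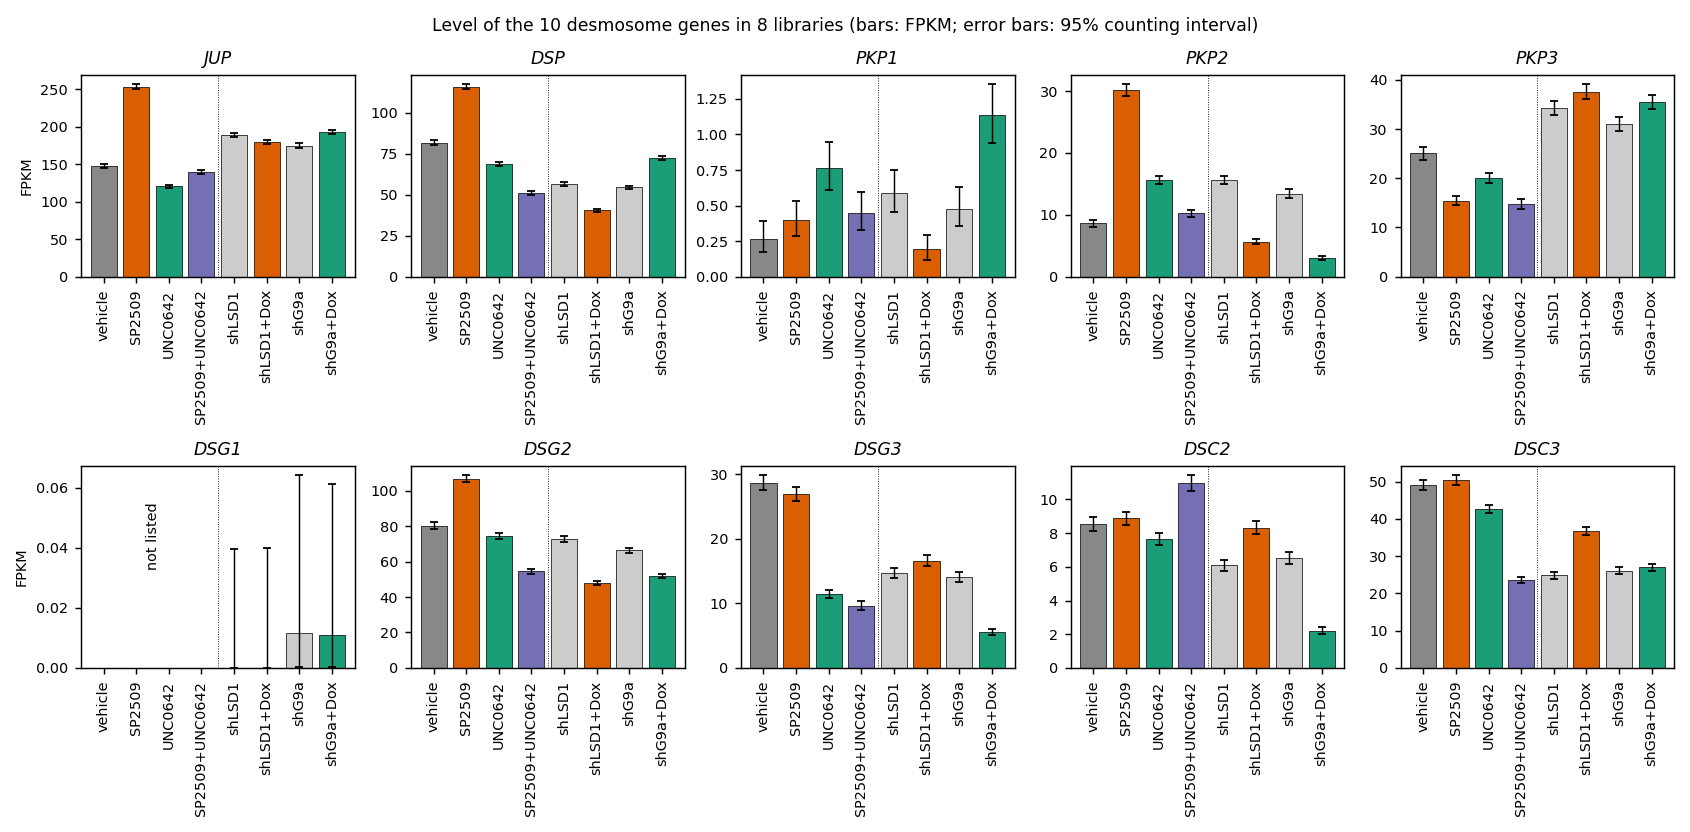
FPKM of each desmosome gene (y axis, linear and starting at 0, with its own scale per gene) in the 8 libraries (x axis), with 95% counting intervals as error bars and a dotted line between the 2 tables. PKP2 is highest with SP2509 (30.1 FPKM) and lowest in the induced shG9a line (2.94 FPKM), while DSG3 is low in all 3 libraries with UNC0642 or induced shG9a.

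The direction in which desmosome genes moved differed between treatments, and each count is given beside the share of all tested genes. With SP2509, 4 of the 8 tested members rose (JUP, DSP, PKP2 and DSG2), against 21.0% of all tested genes, and 1 fell (PKP3), against 39.9%, so that 60.9% of all genes passed the fold in either direction. With UNC0642, PKP2 rose and DSG3 fell while the other 6 stayed within the fold, where 18.2% of all tested genes rose and 16.9% fell (35.1% together). With both inhibitors, 5 of 8 members fell (DSP, PKP3, DSG2, DSG3 and DSC3), against 31.7% of all tested genes, and 0 rose, against 31.4% (63.2% together). The 3 comparisons share the vehicle library, so an error in that library would enter all of them.

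After Dox in the shLSD1 line, 2 of 8 tested members rose (DSC2 and DSC3), where 24.8% of all tested genes rose, and 3 fell (DSP, PKP2 and DSG2), where 12.3% of all tested genes fell (37.1% together). In the shG9a line, 2 of 9 tested members rose (DSP and PKP1) and 3 fell (PKP2, DSG3 and DSC2), against 32.9% and 17.6% of all tested genes (50.5% together). PKP1 entered this comparison only because it reached 1 FPKM in the induced library, so its call follows from the filter, and without it 1 of 8 members rose. The median log2 fold change of the tested members was 0.23 with SP2509, -0.22 with UNC0642, -0.61 with the combination, 0.03 in the shLSD1 line and 0.05 in the shG9a line (-0.15 without PKP1). Over all tested genes these medians were -0.21, -0.01, -0.02, 0.13 and 0.18. The split of the calls over all genes depended on scaling. Of the genes past the fold with SP2509, 34.5% were higher, and 57.7% with TMM factors (a trimmed mean of the ratios). The share was 66.8% in the shLSD1 line, 50.7% when ratios were centered on the median of all genes and 45.4% with TMM factors, and 65.2%, 50.0% and 39.2% in the shG9a line.

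For scale, the uninduced shG9a line was compared with the uninduced shLSD1 line in the same way. Of the 8 members tested, 0 passed the fold. Of all tested genes 3.04% were higher and 4.51% lower in the shG9a line by this rule (7.55% together). The FPKM ratios of these 8 members between the uninduced lines ran from 0.860 for PKP2 to 1.07 for DSC2. These are separate lines and not replicates. The vehicle library, also without an active treatment, lay further from both lines for some members. With vehicle and in the uninduced shLSD1 and shG9a lines, DSG3 had 28.6, 14.7 and 14.1 FPKM and DSC3 49.1, 24.8 and 26.0 FPKM. PKP2 had 8.64, 15.6 and 13.4 FPKM, while DSG2 was closer at 80.3, 72.6 and 66.3 FPKM. The vehicle library differs from the lines in DMSO, construct and selection. The small spread between the uninduced lines is therefore no measure of spread in the inhibitor part.

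**Figure D2:**
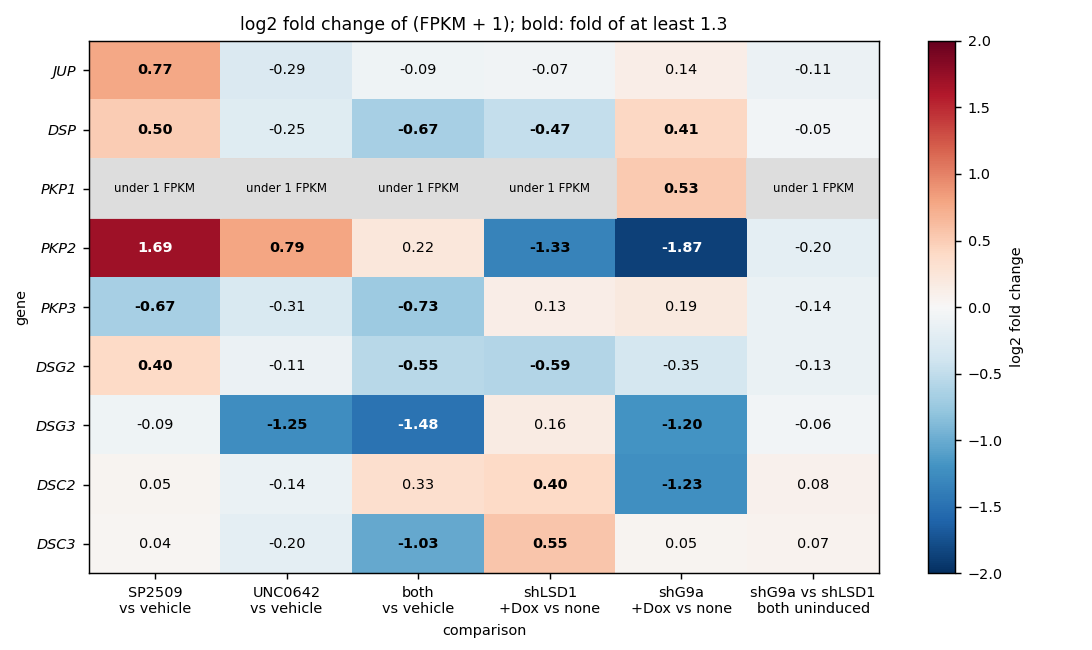
log2 fold change of (FPKM + 1) for 9 desmosome genes (rows) in the 5 comparisons and between the uninduced lines (columns), with values at a fold of at least 1.3 in bold and cells under 1 FPKM in gray. No value in the last column is bold, whereas PKP2 reaches 1.69 with SP2509 and -1.87 in the shG9a line.

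DSP and JUP are plaque proteins inside the cell. DSP (ENSG00000096696, chromosome 6 from 7541575 to 7586717) stood at 81.8 FPKM in the vehicle library, 116 FPKM after SP2509, 68.8 FPKM after UNC0642 and 51.1 FPKM after both. The shLSD1 line had 56.4 FPKM without Dox and 40.6 FPKM with it, and the shG9a line 54.4 and 72.5 FPKM. DSP was thus highest with SP2509 and lowest after induction of shLSD1, and it moved in opposite directions upon LSD1 inhibition (FPKM ratio 1.42, interval 1.39 to 1.45) and LSD1 knockdown (0.719, 0.698 to 0.742). Its increase in the shG9a line (log2 fold change 0.41) was close to the limit of 0.38, and dropped to 0.26 with centering and to 0.18 with TMM factors, both within the fold.

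JUP (ENSG00000173801, chromosome 17 from 41754604 to 41786931), which binds the tails of desmosomal and classical cadherins, had 148, 253, 120.5 and 139.5 FPKM with vehicle, SP2509, UNC0642 and the combination. Without and with Dox, its level was 188.7 and 179.9 FPKM for shLSD1 and 175 and 193 FPKM for shG9a. The SP2509 library stood apart from the other 7, with a ratio of 1.71 to vehicle (1.67 to 1.75), and JUP stayed within the fold in the 4 other comparisons. The ratio of JUP to DSP within a library was 1.81 in the vehicle library, 2.19 after SP2509, 1.75 after UNC0642 and 2.73 after both. Upon Dox it went from 3.35 to 4.44 with shLSD1 and from 3.21 to 2.66 with shG9a.

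The plakophilins link the cadherins to DSP and help cluster them, and PKP2 among them held the largest change of any member. PKP2 (ENSG00000057294, chromosome 12 from 32790745 to 32896840) was at 8.64 FPKM in the vehicle library, 30.1 FPKM after SP2509, 15.6 FPKM after UNC0642 and 10.2 FPKM after both. Upon Dox, PKP2 went from 15.6 to 5.62 FPKM with shLSD1 and from 13.4 to 2.94 FPKM with shG9a. Both single inhibitors raised PKP2 and both knockdowns lowered it. The FPKM ratios were 3.49 (3.25 to 3.75) with SP2509 and 0.360 (0.330 to 0.393) for induced shLSD1, and 1.81 (1.67 to 1.95) with UNC0642 and 0.219 (0.194 to 0.246) for induced shG9a. Of all tested genes, 97.4% had a lower log2 fold change than PKP2 with SP2509, and 1.5% had a lower one in the shG9a line.

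PKP3 (ENSG00000184363, chromosome 11 from 392614 to 404908), a plakophilin found across epithelia, had 25.1, 15.4, 20.0 and 14.7 FPKM with vehicle, SP2509, UNC0642 and the combination. Without and with Dox, it had 34.3 and 37.6 FPKM for shLSD1 and 31.02 and 35.48 FPKM for shG9a. PKP3 fell in both libraries that received SP2509, and was within the fold in the knockdown lines. With TMM factors, which removed a shift of -0.299 from all log2 ratios of the SP2509 comparison, its log2 fold change with SP2509 moved from -0.67 to -0.37, just inside the fold.

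PKP1 (ENSG00000081277, chromosome 1 from 201283452 to 201332993) rested on few reads. Its reads numbered 26 in the vehicle library, 44 after SP2509, 85 after UNC0642 and 47 after both, all below 1 FPKM. The reads were 65 and 21 in the shLSD1 line and 49 and 122 in the shG9a line. The counting interval of the ratio excluded 1 for UNC0642 (2.86, 1.83 to 4.63), the combination (1.68, 1.02 to 2.82), induced shLSD1 (0.328, 0.190 to 0.543) and induced shG9a (2.38, 1.69 to 3.38), and included 1 for SP2509 (1.49, 0.897 to 2.52). PKP1 could be called in the shG9a line alone, where it passed 1 FPKM only in the induced library, and TMM factors brought its log2 fold change there from 0.53 to 0.31, within the fold.

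The desmogleins differed from each other most clearly when G9a was targeted. DSG3 (ENSG00000134757, chromosome 18 from 31447795 to 31478702), a basal-layer desmoglein and the main autoantigen of pemphigus vulgaris, was at 28.6 FPKM in the vehicle library, 26.9 FPKM after SP2509, 11.4 FPKM after UNC0642 and 9.63 FPKM after both. Without and with Dox, it had 14.7 and 16.6 FPKM for shLSD1 and 14.1 and 5.57 FPKM for shG9a. DSG3 was low in all 3 libraries in which G9a was targeted and was near its control when only LSD1 was. The ratios with UNC0642 and with induced shG9a, which share no library, were 0.399 (0.372 to 0.429) and 0.395 (0.357 to 0.438). Among all tested genes, 1.5% had a lower log2 fold change with UNC0642 and 4.1% in the shG9a line.

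DSG2 (ENSG00000046604, chromosome 18 from 31498043 to 31549008), the broadly expressed desmoglein, lies next to DSG3. Over vehicle, SP2509, UNC0642 and the combination it had 80.3, 107, 74.5 and 54.6 FPKM. Its level without and with Dox was 72.6 and 48.0 FPKM for shLSD1, and 66.3 and 51.8 FPKM for shG9a. DSG2 followed DSP in that it rose with SP2509 and fell with the combination and with induced shLSD1. In the shG9a line its log2 fold change of -0.35 was within the fold, but became -0.49 with centering and -0.57 with TMM factors, which are decreases past it. The end of DSG2 overlaps the antisense gene DSG2-AS1. Whether reads were assigned by strand is not given in the sources used here, and DSG2-AS1 had at most 41 reads in any library, against at least 5201 for DSG2.

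The start regions of the desmoglein neighbors are shown because these genes sit side by side and yet had different values when G9a was targeted, and that of DSP because it moved with DSG2 in 3 comparisons. They are RefSeq sequences (GRCh38.p14, plus strand), shown up to the RefSeq start or to the base before the gene start in the deposited tables, whichever comes first, and lie at chr18:31497927-31498042 for DSG2, chr18:31447491-31447740 for DSG3 and chr6:7541421-7541574 for DSP. Capitals mark matches, on either strand, to the GC box GGGCGG or to the E-box CACCTG bound by Snail and ZEB factors.
DSG2: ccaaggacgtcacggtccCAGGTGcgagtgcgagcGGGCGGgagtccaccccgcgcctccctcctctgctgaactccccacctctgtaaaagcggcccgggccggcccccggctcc
DSG3: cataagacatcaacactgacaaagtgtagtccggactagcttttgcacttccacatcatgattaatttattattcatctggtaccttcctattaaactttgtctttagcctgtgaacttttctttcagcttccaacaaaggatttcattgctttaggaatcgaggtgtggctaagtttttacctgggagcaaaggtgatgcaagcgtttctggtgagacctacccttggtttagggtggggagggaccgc
DSP: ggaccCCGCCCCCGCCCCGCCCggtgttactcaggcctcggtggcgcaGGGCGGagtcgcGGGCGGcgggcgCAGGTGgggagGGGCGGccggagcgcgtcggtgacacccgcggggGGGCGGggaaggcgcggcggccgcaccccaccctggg
Over the full window of 250 bases before the RefSeq start, the G and C content was 75.2% for DSG2, 78% for DSP and 42.8% for DSG3, with a median of 58.0% over 35116 promoters. DSG2 held 2 GC boxes and DSP 7, and DSG3 held 0, while 42.6% of all promoters held at least 1. DSC2, which fell in the shG9a line, had 1 and 2 GC boxes at its 2 starts, and DSC3, which did not, had 0. A link between these counts and the values when G9a was targeted was not tested. The E-box was found 2 times each in DSG2 and DSP and 0 times in DSG3 (17.5% of all promoters). The AP-1 site TGANTCA and the Grainyhead site AACCNGTT, found in 6.57% and 1.49% of all promoters, were absent from the windows of all 8 desmosome genes with a RefSeq promoter entry. PKP2 and PKP3 had no entry. A match is a run of letters and does not show that a factor binds there.

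The desmocollins, which pair with desmogleins across the junction, also moved separately. DSC3 (ENSG00000134762, chromosome 18 from 30990008 to 31042815), the isoform of stratified epithelia, had 49.1, 50.4, 42.6 and 23.6 FPKM over vehicle, SP2509, UNC0642 and the combination. It had 24.8 and 36.7 FPKM in the shLSD1 line and 26.0 and 27.0 FPKM in the shG9a line. DSC3 was near vehicle with each single inhibitor, and fell with their combination to a ratio of 0.481 (0.459 to 0.503). DSC3 rose in the shLSD1 line, with a ratio of 1.48 (1.41 to 1.55).

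DSC2 (ENSG00000134755), the broadly expressed desmocollin, lies on chromosome 18 from 31058840 to 31102415 in the inhibitor table and to 31102522 in the knockdown table. It had 8.51, 8.88, 7.64 and 10.96 FPKM in the inhibitor libraries, in the order given for DSC3. The highest of these 4 values was that of the combination, whose log2 fold change of 0.33 was within the fold. The knockdown lines had 6.09 and 8.32 FPKM of DSC2 without and with Dox for shLSD1, and 6.503 and 2.20 FPKM for shG9a. It fell in the shG9a line to a ratio of 0.338 (0.304 to 0.376). The increase in the shLSD1 line (log2 fold change 0.40) was 0.29 with centering, 0.25 with TMM factors and 0.35 against the mean of both uninduced lines, all within the fold.

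Pairs of related members were also compared within each library, where scaling between libraries cancels out. The ratio of DSG2 to DSG3 was 2.80 in the vehicle library, 3.96 after SP2509, 6.51 after UNC0642 and 5.67 after both. Without and with Dox it was 4.94 and 2.89 for shLSD1, and 4.70 and 9.30 for shG9a. The desmoglein make-up thus leaned further to DSG2 whenever G9a was targeted, and also with SP2509 alone. It leaned the other way upon LSD1 knockdown.

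The ratio of DSC3 to DSC2 lay between 5.58 and 5.77 in the vehicle and single-inhibitor libraries and was 2.16 with the combination. It was 4.08 and 4.41 in the shLSD1 line, and 4.0 and 12.3 in the shG9a line. The combination and the induced shG9a library were therefore at opposite ends of the range. PKP3 exceeded PKP2 in 7 libraries, with ratios from 1.28 with UNC0642 to 12.1 in the induced shG9a line. SP2509 was the exception, where PKP2 exceeded PKP3 (ratio of PKP3 to PKP2 0.512, 0.477 to 0.548).

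**Figure D3:**
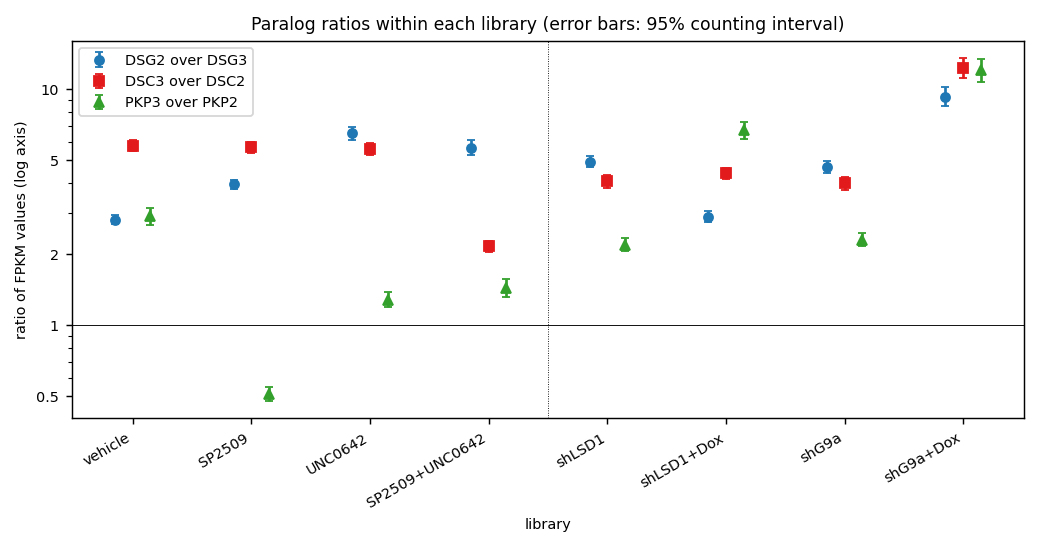
Ratio of FPKM values (y axis, log scale) of DSG2 to DSG3, DSC3 to DSC2 and PKP3 to PKP2 within each of the 8 libraries (x axis), with 95% counting intervals. All 3 ratios are highest in the induced shG9a library, at 9.30, 12.3 and 12.1, and only the PKP3 to PKP2 ratio with SP2509 lies below 1.

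For several members the combination differed from the product of the single-inhibitor ratios. This product was not computed over all genes, so how common such a departure was is not known. The dose of each compound in the combination is not stated separately, and the vehicle library enters both single ratios. If both ratios to vehicle simply multiplied, PKP2 would have reached 6.31 times its vehicle level, whereas the combination library stood at 1.19 times (1.09 to 1.29). For DSP, DSG2 and DSC3, the products of the single ratios were 1.19, 1.23 and 0.889, and the combination had 0.625, 0.680 and 0.481. The measured ratio was 0.525 to 0.552 of the product in these 3 genes, 0.677 in JUP (0.942 measured, product 1.39), and 0.188 for PKP2. It was 0.394 for PKP1 (1.68 measured, product 4.26), which was below 1 FPKM in these libraries, at 26 to 85 reads. DSG3 was close to the product (0.336 measured, 0.375 expected), as was PKP3 (0.588 and 0.493), and DSC2 lay above it (1.29 and 0.936).

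Set against SP2509 alone, the combination had 0.441 times as much DSP (0.430 to 0.452), 0.512 times as much DSG2 (0.496 to 0.529), 0.551 times as much JUP (0.538 to 0.563) and 0.340 times as much PKP2 (0.318 to 0.363). These are the 4 genes that rose with SP2509, the library they are set against here, so lower values than in it are no separate result. DSG3 and DSC3, which had not risen with SP2509, were lower as well, at 0.358 (0.331 to 0.386) and 0.469 times (0.449 to 0.491). PKP3 had 0.955 times as much and DSC2 1.24 times. The summed FPKM of all members was 430.3 in the vehicle library, 608 after SP2509, 362 after UNC0642 and 315 after both. In bulk RNA, fewer cells that express a gene and less RNA per cell cannot be told apart.

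**Figure D4:**
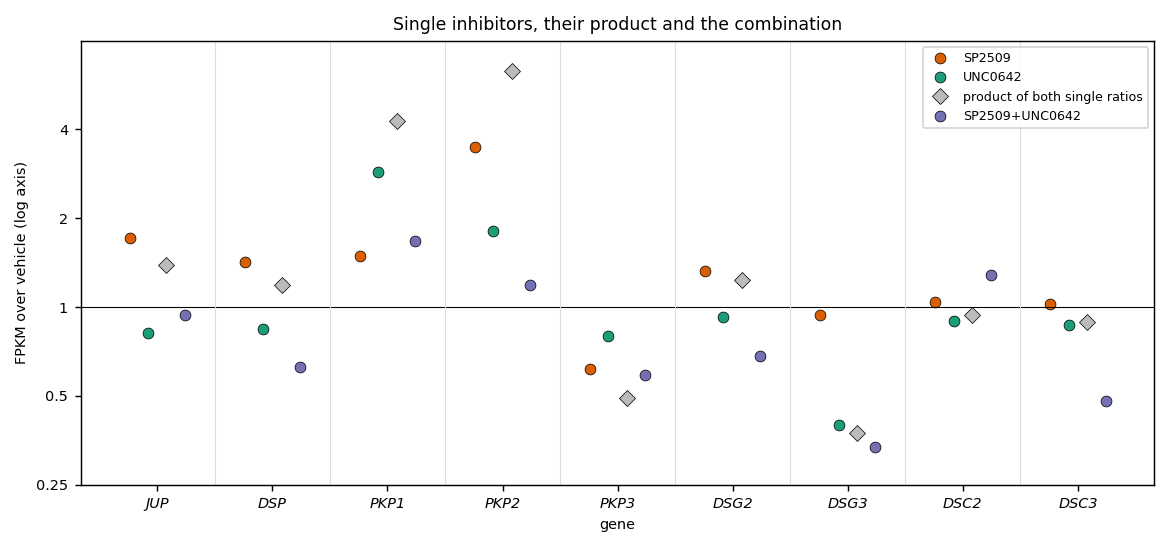
FPKM relative to vehicle (y axis, log scale) for 9 desmosome genes (x axis) with SP2509, UNC0642 and both inhibitors (circles), and the product of the single ratios (diamonds). The combination lies well below the product for PKP2 (1.19 against 6.31), DSP, DSG2 and DSC3. It is below the product by less for JUP (0.942 against 1.39), and near it for DSG3 and PKP3. PKP1 (1.68 against 4.26) rests on 26 to 85 reads per library.

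Inhibitor and knockdown of the same enzyme were then set side by side, since these comparisons share no library. For LSD1, 0 of 8 members moved past the fold in the same direction in both, and 3 moved in opposite directions (DSP, DSG2 and PKP2). Of all 11769 genes tested in both, 4.61% moved in the same direction and 20.4% in opposite directions. For G9a, DSG3 was the single member that moved the same way, and PKP2 the single one that moved in opposite ways, out of 8. The shares over 11906 genes were 8.80% and 10.1%. DSG3 was 1 of 2 members called with UNC0642 and 1 of 5 called in the shG9a line.

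The cadherin members form a cluster on chromosome 18 that also holds DSC1, DSG1 and DSG4. DSC1 did not exceed 0.0789 FPKM in any library, and DSG4 was listed in the knockdown table only, with at most 0.0129 FPKM. The 4 expressed genes of the cluster did not move as a block in any comparison. In the shG9a line, DSC2 and DSG3 fell, DSC3 was within the fold at a log2 fold change of 0.05, and DSG2 had -0.35. Both desmocollins rose in the shLSD1 line while DSG2 fell. With the combination, 3 of the 4 fell, and DSC2 did not.

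**Figure D5:**
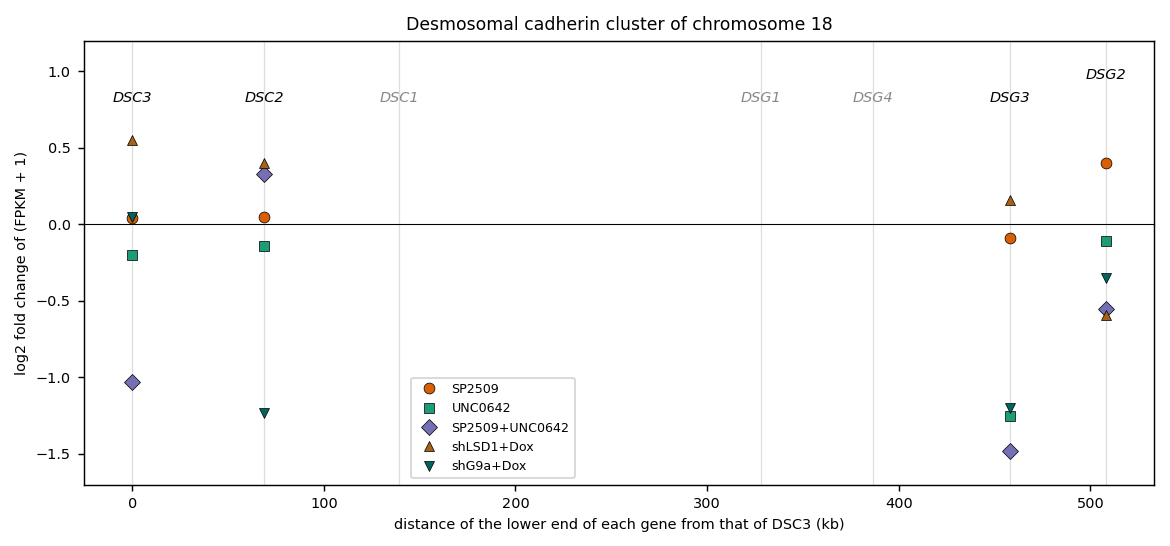
log2 fold change of (FPKM + 1) (y axis) of the 4 expressed cadherin genes in the 5 comparisons (symbols) against the distance of each gene from DSC3 (x axis, kb). Gray names mark cluster genes near 0 FPKM, and the neighbors DSG3 and DSG2 at 458 and 508 kb lie apart with UNC0642, at -1.25 and -0.11.

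Other genes of desmosomes and of neighboring structures were also examined, and the percentages beside the counts are the shares of all tested genes that rose and fell in the same comparison. The genes named are those with the largest changes of their list, so their size is not a result about the list. PERP, a membrane protein of desmosomes and a p63 target, was expressed at 140.3, 273, 164 and 285 FPKM in the inhibitor libraries, at 202 and 150 FPKM in the shLSD1 line and at 204 and 324 FPKM in the shG9a line. It rose with SP2509, with the combination and in the shG9a line, and fell in the shLSD1 line. The plakin PPL (periplakin) had 51.3 and 35.9 FPKM in the shLSD1 line and 47.7 and 24.15 FPKM in the shG9a line, and fell in both. Its partner EVPL (envoplakin) fell with SP2509 and the combination (log2 fold change -0.76 and -0.67) and rose in the shLSD1 and shG9a lines (0.55 and 0.64). Of the 7 genes on this list, 4 were tested in each comparison. Of the 4, 1 rose and 2 fell with SP2509, with the combination and in the shLSD1 line, 2 rose and 1 fell in the shG9a line, and 0 moved with UNC0642.

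The adherens junction, the other cadherin-based junction of epithelia, was represented by 10 genes. Of these, 8 rose with SP2509 and 2 fell (21.0% and 39.9% of all genes), with a median log2 fold change of 0.58, and with the combination 1 rose and 2 fell (31.4% and 31.7%), with a median of -0.04. VCL (vinculin) rose from 27.1 to 94.9 FPKM and CDH3 (P-cadherin) from 67.0 to 167 FPKM with SP2509, and CDH3 fell to 37.1 FPKM with both inhibitors. NECTIN4 had 13.9 FPKM with vehicle, 35.9 with SP2509 and 14.9 with both. With UNC0642, 4 of the 10 rose and 0 fell (18.2% and 16.9%). Of the same 10, 0 rose and 3 fell in the shLSD1 line (24.8% and 12.3%), and 1 rose and 1 fell in the shG9a line (32.9% and 17.6%).

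Of 10 tight junction genes, 4 rose and 3 fell with SP2509 (21.0% and 39.9% of all genes) and 5 rose and 1 fell with the combination (31.4% and 31.7%). With UNC0642, 2 rose and 2 fell, close to the shares of 18.2% and 16.9% over all genes. CLDN4 (claudin 4) rose from 16.4 to 131 FPKM and TJP3 fell from 17.5 to 3.19 FPKM with both inhibitors, and CLDN1 rose from 18.7 to 82.7 FPKM with SP2509. Of the 9 tested in the knockdown lines, 5 rose and 2 fell in the shLSD1 line (24.8% and 12.3%) and 0 rose and 4 fell in the shG9a line (32.9% and 17.6%).

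Among 6 gap junction genes, which encode connexins, all 5 tested fell in the shG9a line, where 17.6% of all genes fell, and 3 of 5 fell in the shLSD1 line, where 12.3% did, with 0 rising in either. Upon Dox, GJB2 went from 95.7 to 3.99 FPKM with shG9a and from 94.8 to 7.515 FPKM with shLSD1. With the combination GJB5 rose from 6.31 to 35.5 FPKM. Of the 6 genes, 3 rose and 3 fell there (31.4% and 31.7%), 4 rose and 1 fell with UNC0642 (18.2% and 16.9%), and 2 of 5 rose and 2 fell with SP2509 (21.0% and 39.9%).

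Keratins are the filaments that DSP anchors. Of the 11 tested with inhibitors, 7 rose and 2 fell with SP2509 (21.0% and 39.9% of all genes). With UNC0642 and with the combination 4 rose and 4 fell, against 18.2% and 16.9% for UNC0642, and close to the 31.4% and 31.7% for the combination. Of 10 tested in the shLSD1 line 1 rose and 5 fell (24.8% and 12.3%), and in the shG9a line 4 of 11 rose and 4 fell (32.9% and 17.6%). KRT17 rose from 324 to 3716 FPKM with SP2509 and fell upon Dox from 1737 to 265 FPKM with shLSD1 and from 1596 to 158 FPKM with shG9a. It also rose with UNC0642 and with the combination (log2 fold change 1.31 and 0.87). KRT15 fell from 151 to 17.3 FPKM with both inhibitors. KRT6A had 0.676 FPKM with vehicle and 20.0 FPKM with UNC0642, and its reads could be shared with the near-identical KRT6B and KRT6C.

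Among 14 transcription factors linked to desmosomal genes, 5 of 11 tested rose and 3 fell with SP2509 (21.0% and 39.9% of all genes), and 5 rose and 4 fell with the combination (31.4% and 31.7%). With UNC0642, 2 rose and 2 fell, close to the 18.2% and 16.9% over all genes. Of 11 tested in the shLSD1 line 3 rose and 2 fell (24.8% and 12.3%), and of 10 in the shG9a line 2 rose and 6 fell (32.9% and 17.6%). SNAI1 (Snail), a repressor of epithelial junction genes, had 0.454 FPKM with vehicle and 14.55 FPKM with both inhibitors, and SNAI2 (Slug) had 12.9 FPKM with vehicle and 67.9 with SP2509. KLF4, a factor of epithelial differentiation, had 4.82 FPKM with vehicle and 29.0 FPKM with both inhibitors, and 9.27 and 2.18 FPKM in the shG9a line. Of 8 enzymes that cleave or modify desmosomes, 3 of 7 tested rose and 2 fell with the combination (31.4% and 31.7%), among them KLK5, a protease that cleaves DSG1, from 8.61 to 23.6 FPKM. With SP2509, 0 of 6 rose and 1 fell (21.0% and 39.9%). With UNC0642 1 of 7 rose (PADI1, 0.195 and 6.53 FPKM) and 1 fell (18.2% and 16.9%). In the shLSD1 line 2 of 7 rose and 1 fell (24.8% and 12.3%), and in the shG9a line 0 of 6 rose and 3 fell (32.9% and 17.6%), including TGM1 from 13.6 to 2.21 FPKM. Of 3 antisense genes of the cadherin cluster, DSG2-AS1 reached 1 FPKM in the SP2509 library alone, with 12 reads in vehicle and 41 in SP2509 (0.378 and 1.14 FPKM). Like PKP1, and like SNAI1, KRT6A and PADI1 above, it passed the filter in the comparison given only through the library where it is high, so nothing is read from these calls.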

How the data were processed

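FPKM values deposited by the authors came in 2 tables, an inhibitor table of 31582 genes and a knockdown table of 28942 genes, made from reads mapped against GRCh38.87 after poor and contaminated reads had been removed. The aligner, the counting tool and the use of strand are not given in the sources used here. The tables were made with slightly different annotation, since 919 of the 26360 genes in both differ in position. Reads were recovered from the FPKM values. Genes with 1 exon gave the library totals, and for every gene the smallest length (or a multiple of up to 4 that equals its GENCODE 44 length or its length in the other table) that makes all values whole was taken. This assigned 99.3% to 99.7% of each total, and 27 and 34 genes had no whole reads. In simulated libraries for SP2509 against vehicle, 98.0% of 29862 genes were recovered exactly. All 100 doubled and all 100 halved genes were called, and 644 of 12691 unchanged genes passed the fold. The simulated reads varied by counting error only, so this last share is no rate of false calls between real libraries.

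Fold changes are ratios of (FPKM + 1), called at 1.3-fold with at least 1 FPKM in 1 of the 2 libraries. This follows the fold given in the study's methods, without its p, because there are no replicates. Ratio intervals are exact binomial (Clopper-Pearson) intervals at 95%, and level intervals are exact Poisson intervals. Motifs were searched in RefSeq promoters. The members and gene lists were chosen with earlier results of these data known, and all 10 members are described. From each other list, the 3 genes with the largest change among those tested are named, except 1 gene that is not reported here. Alternatives were other pseudocounts, filters, folds, scalings and controls, protein-coding genes only, and an exact binomial test on the reads. The comparison of the uninduced lines, the products of single ratios and the counts over inhibitor and knockdown were added after the data were seen. Python 3.11.15, numpy 2.4.6, pandas 2.3.3, scipy 1.17.1 and matplotlib 3.10.9 were used.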

Additional observations from a re-analysis of the deposited data

Results flagged for a closer look

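Dox moved 2 members in opposite directions in the shLSD1 and shG9a lines. DSC2 had a log2 fold change of 0.40 in the shLSD1 line and -1.23 in the shG9a line. DSP had -0.47 in the shLSD1 line and 0.41 in the shG9a line. Each value rests on 1 library per arm, and the difference between the lines was not tested. Both increases left the fold of 1.3 when ratios were centered or scaled with TMM factors.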

How the results depend on the processing

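No paired analysis was possible because each condition has 1 library, and for the same reason no replicate could be left out. A pseudocount of 0.1 or 0.01 and an exact binomial p under 0.05 on the reads changed no count of members beyond 1.5 times. A fold of 2 left 1 member higher and 0 lower with SP2509, 0 higher with UNC0642, 2 lower with the combination, 0 higher and 1 lower in the shLSD1 line and 0 higher in the shG9a line. A fold of 1.5 left 2 higher with SP2509, 0 higher in the shLSD1 line and 0 higher in the shG9a line. With TMM factors, 0 members were lower with SP2509, 1 was higher in the shLSD1 line and 0 were higher in the shG9a line. With centering, 1 member was higher in each of the shLSD1 and shG9a lines. Against the mean of the uninduced lines, 1 was higher in the shLSD1 line. Without the filter, 2 were higher with UNC0642 (PKP1 was added), and with at least 5 FPKM, 1 was higher in the shG9a line (PKP1 was lost). The medians of the members in the knockdown lines were near 0 and changed sign, to -0.03 without the filter, -0.08 with centering and -0.11 with TMM in the shLSD1 line, and to -0.15 with at least 5 FPKM, -0.09 with centering and -0.17 with TMM in the shG9a line.

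Over all genes, centering removed a shift in log2 ratios of 0.110 in the shLSD1 line and 0.142 in the shG9a line, and TMM one of -0.299 with SP2509 and of 0.144 and 0.225 in these lines. Genes higher and lower with SP2509 numbered 2807 and 5318, and with TMM 4546 and 3328. In the shLSD1 line they numbered 3219 and 1599, with TMM 1987 and 2391, and with centering 2209 and 2151. In the shG9a line they numbered 4305 and 2298, with TMM 2269 and 3519, and with centering 2943 and 2940. A fold of 2 left 1101 and 1736 with SP2509, 634 and 413 with UNC0642, 1811 and 1331 with the combination, 436 and 424 in the shLSD1 line, and 671 and 788 in the shG9a line. With at least 5 FPKM they numbered, in the same order, 1624 and 2826, 1274 and 1117, 2557 and 2446, 1845 and 894, and 2459 and 1383. A fold of 1.5 left 1450 and 1168 with UNC0642, 1591 and 970 in the shLSD1 line and 2407 higher in the shG9a line. Protein-coding genes alone gave 1446 lower with UNC0642. The unchanged rule gave 2410 and 2242 with UNC0642 and 4370 and 4413 with the combination. The reads do not limit the 8 expressed members, which had 358 reads or more, whereas PKP1 and DSG1 are limited by depth.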
